A study of Mus musculus with 3 samples.

Results

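Cdk6 and Dleu2 are cell-cycle loci at which the leukaemia fusion protein NUP98-HOXD13 was found on chromatin in mouse leukaemia cells given DMSO and in cells given VTP50469. Their members here were all listed intervals whose summit lay in or within 10 kb of Cdk6 (chromosome 5, 3341004 to 3531008), or on chromosome 14 from 61600000 to 61690000, which holds Dleu2. The rule took 10 of the 1013 intervals on chromosomes 1 to 19, X and Y: 5 of 613 in the DMSO list and 5 of 400 in the VTP50469 list. Cdk6 had 1 DMSO and 2 VTP50469 intervals, and Dleu2 had 4 and 3. The intervals were selected on the position of their summits, and the loci were chosen by their known enrichment and by the way their intervals split between the lists, so strengths and splits are given as a description.

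The cells were the mouse leukaemia line labelled NUP98-HOXD13, and every group carried the fusion in a biotinylated form. They were cultured with interleukin 3, interleukin 6 and stem cell factor, and were treated for 96 h with the vehicle DMSO or with 2 µM VTP50469, a small molecule that blocks the contact of menin with the methyltransferase MLL. BioChIP-seq pulls down a biotinylated protein with its crosslinked DNA on streptavidin beads. The series has 3 samples, which are a pull-down from each treatment and an input from DMSO cells, with 1 library in each group. No interval therefore has a replicate error, no test across samples could be made, and each difference given is between 2 libraries, not between treatments. The labels do not say how the fusion was introduced or how many clones the line holds, and peak lists carry no expression by which the cell type could be checked against marker genes.

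Cdk6 encodes a kinase that joins D-type cyclins to phosphorylate the retinoblastoma protein RB and so to open the way from G1 into S phase. In blood progenitors and in MLL-rearranged leukaemias it is known for promoting proliferation and holding back differentiation. Dleu2 is a long non-coding RNA gene, whose human counterpart lies in a region of chromosome 13 often deleted in chronic lymphocytic leukaemia. It hosts the microRNAs miR-15a and miR-16-1, which restrain cyclins, CDK6 and the survival factor BCL2. HOXD13 contributes a DNA-binding homeodomain to the fusion, and NUP98 contributes the repeats of a nuclear pore protein.

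The mature microRNAs of Mir15a and Mir16-1 are shown because all the Dleu2 intervals lay between the start of the host gene and these hairpins. Both are encoded on the minus strand of GRCm38.p6, at chr14:61632075-61632096 and chr14:61631936-61631957, and the sequences are from RefSeq. Capitals mark the seed, bases 2 to 8, which pairs with target messages.
mmu-miR-15a-5p: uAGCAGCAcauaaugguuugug
mmu-miR-16-5p: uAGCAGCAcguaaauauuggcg
Both had the same seed, their first 9 bases were identical, and 16 of their 22 positions matched. This seed occurred in 10 distinct mature sequences of the RefSeq table, from 11 genes. Of these 11 genes, Mir15a and Mir16-1 had a summit of both lists within 10 kb. The next nearest was Mir6342, 75.1 kb from a DMSO summit, and for the others the nearest summit of either list was 333 kb or more away.

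The 250 bases before the RefSeq start of Cdk6 (chr5:3343643-3343892, plus strand) and of Dleu2 (chr14:61682374-61682623, minus strand, both GRCm38.p6) are shown because the distances of the intervals are measured from the base that follows them, the start itself. Capitals mark the letters CACGTG, those of the E-box bound by MYC and related proteins, and TATAAA, those of the TATA box. They were searched on both strands.
Cdk6: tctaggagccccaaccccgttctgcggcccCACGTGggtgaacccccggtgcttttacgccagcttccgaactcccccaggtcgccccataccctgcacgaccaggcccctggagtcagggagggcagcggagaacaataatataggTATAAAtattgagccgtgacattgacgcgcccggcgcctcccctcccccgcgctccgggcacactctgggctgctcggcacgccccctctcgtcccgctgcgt
Dleu2: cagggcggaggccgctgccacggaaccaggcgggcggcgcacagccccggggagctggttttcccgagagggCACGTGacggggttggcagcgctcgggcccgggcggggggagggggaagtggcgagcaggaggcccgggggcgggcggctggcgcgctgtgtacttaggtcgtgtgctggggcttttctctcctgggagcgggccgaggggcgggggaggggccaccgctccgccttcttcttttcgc
Both windows held 1 CACGTG, which 6.02% of all 32851 such windows in the table did. The Cdk6 window also held 1 TATAAA, found in 12.4% of windows. It began at -103 from the RefSeq start, and whether it acts as a TATA box was not tested. The same window held 1 each of TTTAC and TTTAT, letters favoured by HOX proteins of the HOXD13 class and found in 28.3% and 37.3%. The TTTAT match lay on the other strand and overlapped TATAAA, and the Dleu2 window held none of these 3. GC made up 66.0% of the Cdk6 window and 74.8% of the Dleu2 window, against a median of 52.4%. None of the 10 intervals reached a promoter window: the nearest interval edge was 3567 bp from that of Cdk6 and 35511 bp from that of Dleu2. The matches describe these letters alone and are not places where the fusion was found.

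At Cdk6 the fusion was found upstream of the gene and not inside it, in both libraries. The DMSO interval lay at chr5:3338581-3340063 and was 1483 bp wide. Its summit, the base of highest signal, was at 3338746. The nearest edge of the interval was 941 bp below the Cdk6 span, and the summit was 2258 bp below it and 5147 bp upstream of the RefSeq start of the gene, which lies inside the span. It was, however, inside Gm36470, a long non-coding RNA gene of 53.6 kb on the opposite strand whose span (3289980 to 3343559) overlaps the first bases of the Cdk6 span. From the starts of Gm36470 in RefSeq, at 3343559 and 3342252, the DMSO summit lay 4813 and 3506 bp downstream.

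The authors' peak caller gives each interval a fold enrichment, the ratio of the library to a background at the summit, and a −log10 q, a measure of significance that rises with strength. Both are the authors' own values, and each was ranked only within its own list. Where folds of both lists are set side by side below, the depth and the control behind each are unknown. The DMSO interval at Cdk6 had a fold of 10.5 and a −log10 q of 17.0. It ranked 149 of 613 by fold, where the median was 7.64, and 168 of 613 by −log10 q. By width it ranked 18, against a median of 350 bp.

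With VTP50469 the same stretch was listed as 2 narrow intervals. The first, chr5:3338661-3338904, was 244 bp wide, with a fold of 6.69 and a −log10 q of 6.71. Its summit, at 3338731, lay 15 bp from the DMSO summit. In the VTP50469 list it ranked 241 of 400 by fold and 269 by −log10 q, and its fold was below the list median of 7.33.

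The second VTP50469 interval, chr5:3339783-3340076, was 294 bp wide, with a fold of 4.77. Its −log10 q of 2.02 was the lowest in the VTP50469 list, a value shared with 4 other intervals. Its summit at 3339839 lay 1093 bp from the DMSO summit, toward Cdk6, and 4054 bp upstream of the gene start. It ended 13 bp beyond the end of the DMSO interval. So the DMSO interval was in the upper part of its list, and both VTP50469 intervals were in the lower part of theirs.

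The 2 VTP50469 intervals left an unlisted gap of 878 bp between them and covered 525 of the 1483 bp, or 35.4% of the DMSO interval. Over the 305 DMSO intervals that overlapped a VTP50469 interval by at least 1 bp the median coverage was 88.5%, and the Cdk6 interval was the seventh lowest. The distance of 15 bp between the main summits was below the median of 26 bp to the nearest summit of an overlapping interval, and 37.7% of the 305 intervals had a distance of 15 bp or less. A limit of 5 on −log10 q kept 1 VTP50469 interval at Cdk6 and a limit of 10 kept 0, while the DMSO interval passed both.

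**Figure D1:**
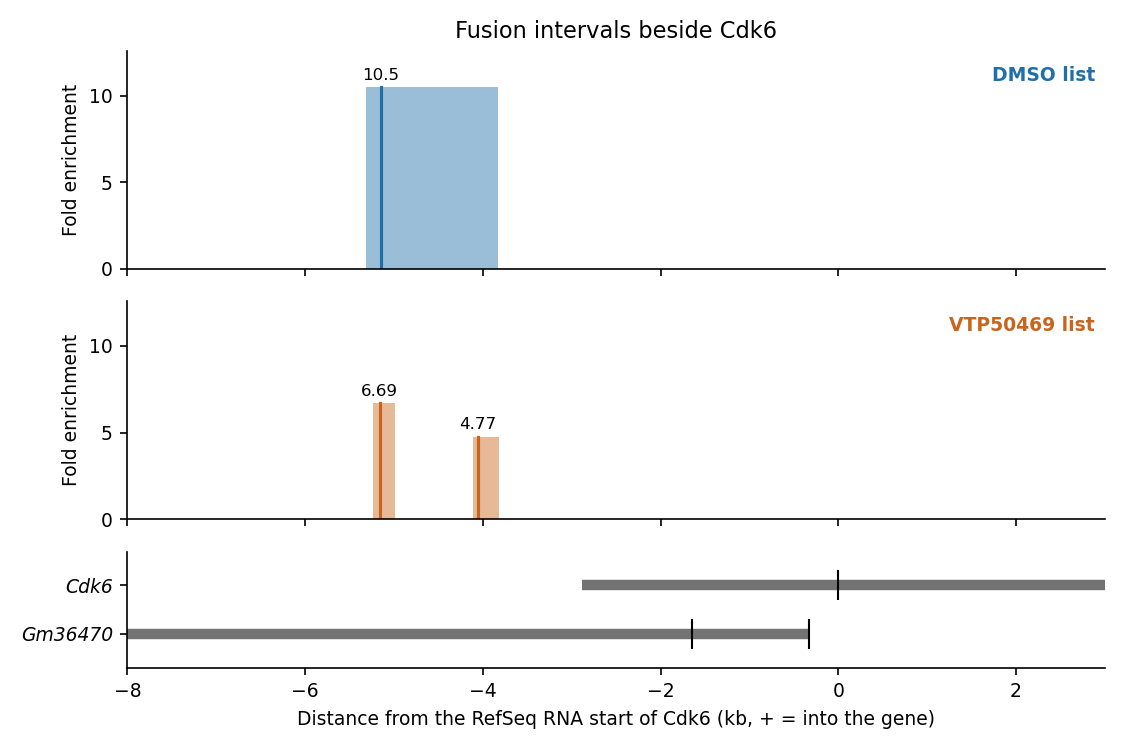
Intervals beside Cdk6 in the DMSO list (top) and the VTP50469 list (middle), with gene spans (bottom), along the distance in kb from the RefSeq start of Cdk6. A box spans an interval, its height is the authors' fold enrichment at the summit, the dark line marks the summit, and ticks on the genes mark RefSeq starts. The DMSO box of fold 10.5 stands over a pair of VTP50469 boxes of fold 6.69 and 4.77 with an 878 bp gap, all inside Gm36470 and outside Cdk6.

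The Cdk6 intervals had no other interval near them. The next DMSO interval was 11613975 bp away and the next VTP50469 interval 10169031 bp away, both at higher coordinates. Toward the start of the chromosome neither list had a further interval. Moving the 10 kb limit outward to 50 kb therefore added none. All 3 summits lay within 2273 bp of the Cdk6 span. Inside the 190 kb span of the kinase gene neither list had a summit, and Gm29868, a non-coding gene within that span, had none within 10 kb. Fam133b, the next protein-coding gene, was 203770 bp from the DMSO interval.

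At Dleu2 the fusion was found well inside the gene, in a tract of several intervals, and the strongest of them ranked high in both lists. All 7 intervals lay inside the Dleu2 span (chromosome 14, 61602836 to 61682373, minus strand), with summits 36041 to 45623 bp downstream of its start. The RefSeq table gives gene spans and no exons, so whether a summit lay in an exon or an intron was not read. The DMSO intervals spread over 10.2 kb and covered 4856 bp. The VTP50469 intervals spread over 5.75 kb and covered 3088 bp, and all 3088 bp lay within DMSO intervals.

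The interval nearest to the start of Dleu2 was the strongest. In the DMSO list it lay at chr14:61644026-61646863, with its summit at 61646223. It was 2838 bp wide, rank 10 of 613 by width, and its fold of 18.2 ranked 33. Its −log10 q of 51.1 ranked 30. The VTP50469 list had 2 intervals there, as at Cdk6.

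The stronger of these, chr14:61646015-61646683, was 669 bp wide and had a fold of 21.1 and a −log10 q of 51.5, which ranked 13 and 16 of 400. Its summit, at 61646332, lay 109 bp from the DMSO summit. That was farther than usual: 89.8% of the 305 shared DMSO intervals had a distance of 109 bp or less, with a median of 26 bp. The weaker VTP50469 interval, chr14:61644087-61645738, was 1652 bp wide, rank 8 by width, with a fold of 10.7 and a −log10 q of 17.1 (ranks 84 and 108). Its summit, at 61645096, lay 1127 bp from the DMSO summit. Between them was a gap of 276 bp, close to the smallest gap in that list, 243 bp. Together they covered 81.8% of the DMSO interval, so this split left far less of it unlisted than that at Cdk6.

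The best matched of the members lay farther from the start of Dleu2, beyond a weak DMSO interval that is described below. In the DMSO list this best matched interval lay at chr14:61640895-61641745 and was 851 bp wide. It had a fold of 13.6 and a −log10 q of 42.1 (ranks 85 and 39 of 613). In the VTP50469 list it lay at chr14:61640936-61641702, 767 bp wide, with a fold of 9.35 and a −log10 q of 22.2 (ranks 127 and 77 of 400). The VTP50469 interval was nested in the DMSO interval, 41 bp in at one edge and 43 bp at the other, and covered 90.1% of it. The summits, at 61641498 and 61641485, were 13 bp apart.

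The remaining pair of DMSO intervals had no VTP50469 counterpart. The interval at chr14:61642045-61642928 was 884 bp wide, rank 36 by width, but weak, with a fold of 5.31 and a −log10 q of 4.41 (rank 542 of 613). It lay 299 bp from its DMSO neighbour at 61640895 to 61641745 and 342 bp from the VTP50469 interval nested in that neighbour. The interval at chr14:61636620-61636902 was 283 bp wide, with a fold of 6.82 and a −log10 q of 8.94 (rank 344), and was 4033 bp from any VTP50469 interval. It was the interval nearest to the microRNAs, its edge 4510 bp from Mir15a and 4648 bp from Mir16-1.

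**Figure D2:**
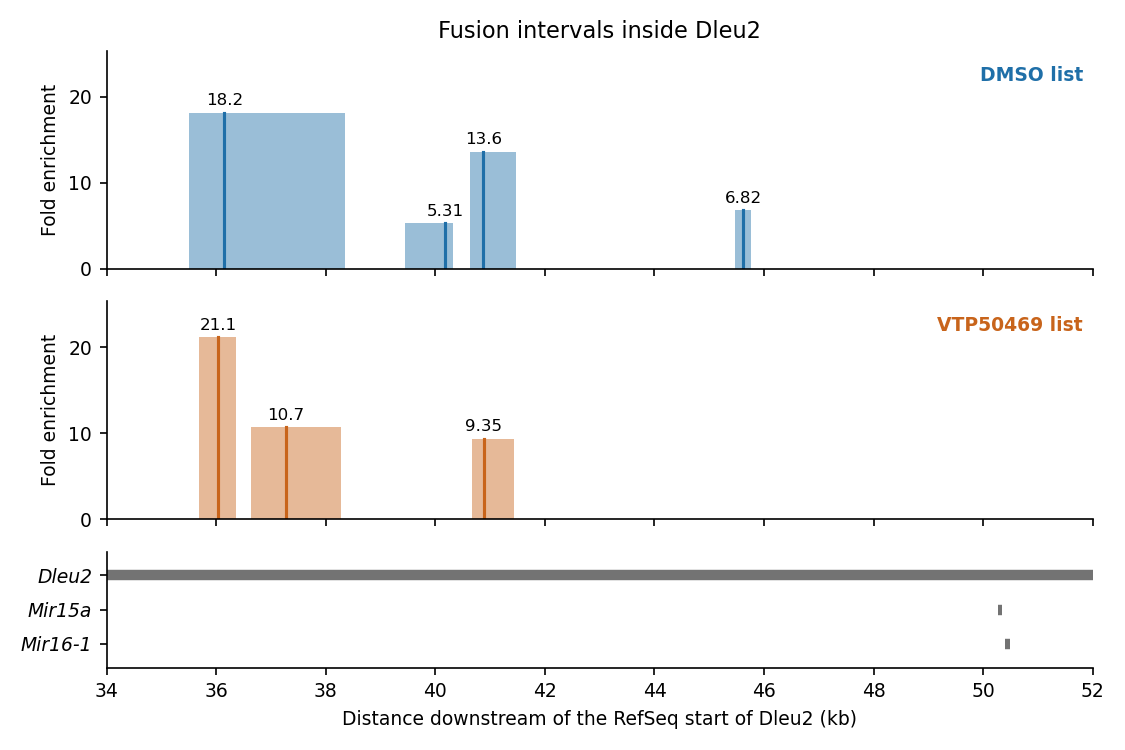
Intervals inside Dleu2 in the DMSO list (top) and the VTP50469 list (middle), with the gene and its microRNA hairpins (bottom), along the distance in kb downstream of the RefSeq start of Dleu2. Boxes span intervals, their height is the authors' fold enrichment at the summit, and dark lines mark summits. The strongest boxes, 18.2 and 21.1, have summits 109 bp apart, and the DMSO boxes of 5.31 and 6.82 have no VTP50469 box under them.

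Ordered by fold, the DMSO intervals of Dleu2 ran 18.2, 13.6, 6.82 and 5.31, a ratio of 3.42 between the highest and the lowest. The VTP50469 folds were 21.1, 10.7 and 9.35, a ratio of 2.26. The 2 DMSO intervals with no counterpart were therefore the 2 weakest of the locus. In the VTP50469 list, the summit nearest to the hairpins was 9375 bp from Mir15a, against 4640 bp in the DMSO list. No summit lay within 10 kb of Trim13 or Kcnrg, a ubiquitin ligase gene and a potassium channel regulator gene that overlap the far end of Dleu2. The nearest was 23917 bp from Kcnrg and 26463 bp from Trim13, both in the DMSO list.

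The Dleu2 tract, too, had few intervals around it. On the side of its start the nearest interval in either list was 1222006 bp away. On the other side the VTP50469 list had an interval of fold 9.58, 345418 bp away, with no DMSO counterpart, and the nearest DMSO interval was 13773235 bp away. Widening the window by 50 kb on each side, or taking summits within 10 kb of the annotated gene, left the counts at 4 and 3.

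**Figure D3:**
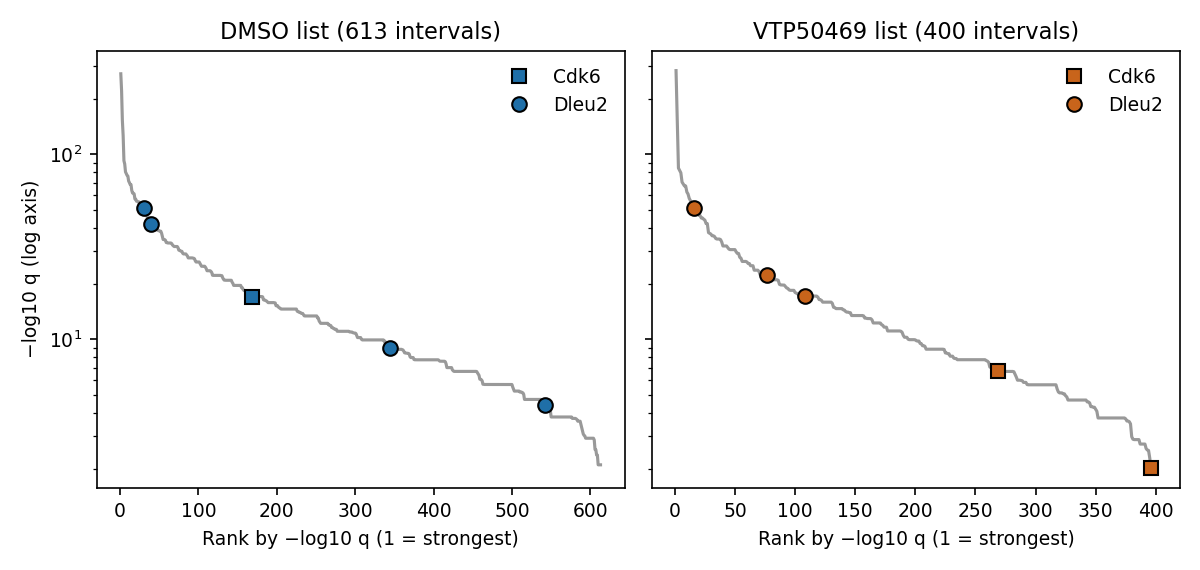
−log10 q of each interval (log axis) against its rank, in the DMSO list (left, 613 intervals) and the VTP50469 list (right, 400 intervals). The grey line is the whole list, squares are Cdk6 and circles are Dleu2. The strongest Dleu2 interval ranks 30 and 16, and the Cdk6 intervals rank 168 in the DMSO list and 269 and 396 in the VTP50469 list.

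Over both loci, 3 of the 5 DMSO intervals overlapped a VTP50469 interval, beside 49.8% of the whole DMSO list. All 5 VTP50469 intervals overlapped a DMSO interval, beside 77.8% of the VTP50469 list. These were not 5 separate cases, because the widest DMSO interval at each locus was overlapped by 2 of them. With 5 intervals in each list these counts were too few to be set apart from the lists as a whole. Among the DMSO intervals within 50 ranks of the strongest Dleu2 interval 96.2% were shared, and 94.6% around the interval at 61640895. The share was 61.1% around the Cdk6 interval. Around the DMSO intervals with no counterpart, 37.3% were shared near that at 61636620 and 32.3% near that at 61642045. In the VTP50469 list 97.0 to 100.0% were shared around the 3 Dleu2 intervals, and 66.7% and 52.7% around the weaker Cdk6 intervals. A VTP50469 interval that is part of a split is shared by definition, and the loci were chosen for their splits. The sharing of such intervals is therefore not read against any of these shares.

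Overlap of a DMSO interval with 2 or more VTP50469 intervals was rare. It occurred at 8 of 613 DMSO intervals, or 1.31%, of which 1 lay at Cdk6 and 1 at Dleu2. Those 8 had a median width of 2878 bp, against 412 bp for the DMSO intervals shared without a split. Of the 19 DMSO intervals at least as wide as that at Cdk6, all 19 were shared, 7 were split and 12 overlapped 1 VTP50469 interval. An interval must be wide to overlap 2 separate ones, so the greater width of the split intervals is in large part fixed by construction. The reverse, a VTP50469 interval over 2 or more DMSO intervals, occurred at 3 of 400 intervals and at neither locus.

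The other 6 split DMSO intervals differed in strength. Those with the highest −log10 q lay in Dach1, a transcription factor gene of development, in Boll, a germ-cell RNA-binding protein gene, and in Hoxa7, a homeobox gene. The Dach1 interval had a fold of 15.1, over VTP50469 intervals with folds of 8.61 and 9.40. The Boll interval had a fold of 16.5, and its 3 VTP50469 intervals had folds of at most 6.98. The Hoxa7 interval had a fold of 9.28, and the higher of its VTP50469 folds was 10.0. The next in −log10 q (13.4) lay in no protein-coding gene. The nearest, Sfi1, a centrosome gene, was 30104 bp away, beyond the 10 kb limit used for Cdk6. This interval had a fold of 2.698 and VTP50469 folds of 3.14 and 1.98. The remaining split intervals had DMSO folds of 2.17 and 3.47. In 4 of the 6, as at Dleu2, the higher VTP50469 fold was the larger number. Apart from Hoxa7, these 4 had DMSO folds of 2.17 to 3.47, below the list median of 7.64 and far below the 18.2 at Dleu2. In 2 of the 6, Dach1 and Boll, all VTP50469 folds were smaller than the DMSO fold, as at Cdk6. Each fold is from its own list, with unknown depth and control, so their order does not compare the treatments. In these 6 and at Cdk6 and Dleu2, the gaps between adjacent VTP50469 intervals ran from 243 bp to the 878 bp at Cdk6.

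**Figure D4:**
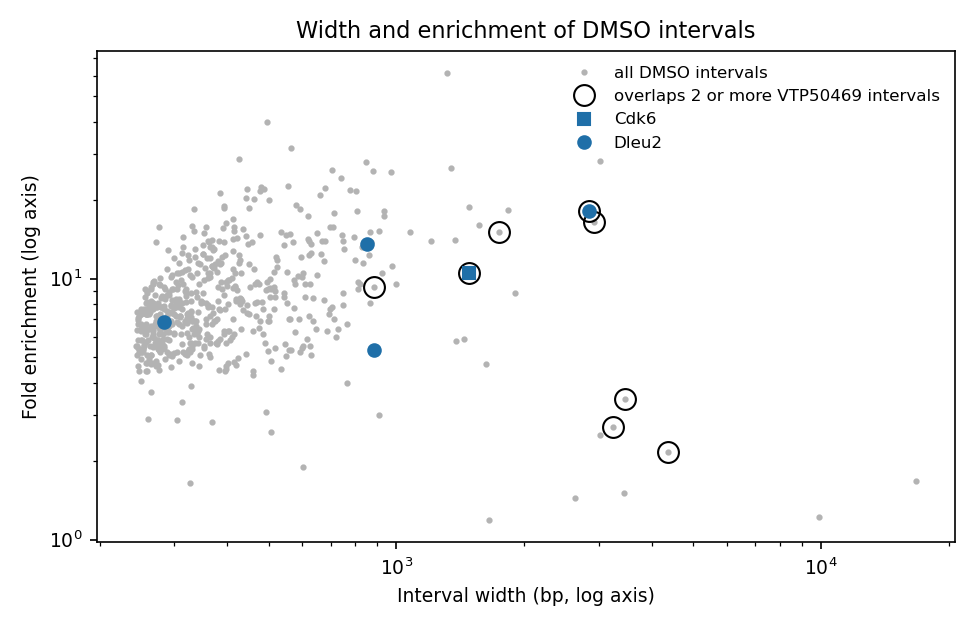
Fold enrichment against interval width for all 613 DMSO intervals (grey points, both axes logarithmic), with Cdk6 (square) and Dleu2 (filled circles). Open circles mark the 8 intervals that overlap 2 or more VTP50469 intervals. The Cdk6 interval (1483 bp) and the widest Dleu2 interval (2838 bp) are among the wide split intervals, and the other 3 Dleu2 intervals are 851, 884 and 283 bp wide.

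Genes of the cell cycle other than Cdk6 were looked at next. Of 45 genes, which are the D-type cyclins with CDK4 and CDK6, the CDK inhibitors, RB and E2F genes, and the S-phase and mitotic cyclins and kinases, 2 had a DMSO summit in or within 10 kb and 1 had a VTP50469 summit. Over all 21887 protein-coding genes the shares were 1.48% and 1.06%. Cdk6 was the gene in both lists and was itself chosen for its peak, so nothing about cell-cycle genes as a group is read from these counts. None of Cdk4, Ccnd1, Ccnd2 and Ccnd3, the partners and relatives of Cdk6, had a summit in either list, nor did any of 7 CDK inhibitor genes or of 20 S-phase and mitotic genes.

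The other gene was Rb1, which encodes the retinoblastoma protein that CDK6 phosphorylates. It held 1 DMSO interval, at chr14:73239853-73240174, 322 bp wide, with a fold of 5.09 and a −log10 q of 2.92, which ranked 594 of 613. The nearest VTP50469 summit lay 8375019 bp from the summit of that interval. Of 6 well known targets of miR-15 and miR-16, namely Bcl2, Ccnd1, Ccne1, Cdk6, Wee1 and Chek1, the other 5 had no summit in either list, and Cdk6 is the gene chosen for its peak. With 1.48% and 1.06% of all genes having a summit, such a count says little. Of 9 genes of the Dleu2 neighbourhood, Dleu2, Mir15a and Mir16-1 had a summit in or within 10 kb in both lists, all from the same tract, while Trim13, Kcnrg, Spryd7, Rcbtb1, Rnaseh2b and Dleu7 had none.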

How the data were processed

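NUP98-HOXD13 BioChIP-seq was deposited as 1 peak list per pull-down library, called per library on mm10. MACS2, STAR 2.7.5a, SAMtools 1.95, bedtools, Picard 2.9.4 and bcl2fastq 2.20.0.422 are named, without role or order, in the submitters' processing notes. For the settings, the calling threshold and the control, the sources used here give nothing. Each interval carries the authors' fold enrichment, a ratio to background, and the authors' −log10 p and −log10 q. The deposited score was 10 times the −log10 q, cut to a whole number, in 655 of 655 DMSO and 439 of 439 VTP50469 intervals, and was not used further. The depth of the libraries is unknown from these lists. The input was not analysed here.

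Only intervals of chromosomes 1 to 19, X and Y entered (613 and 400), starts were made 1-based, and the summit was the start column plus the offset plus 1. Intervals were shared at 1 bp of overlap or more. Ranks are within a list. Gene spans, starts and sequences came from RefSeq tables of GRCm38.p6, whose primary assembly is mm10. They give no exons, and the bases under the intervals were not read. All 45 cell-cycle genes were found in the table. Overlap and gene assignment were tested on simulated intervals. The software was pandas 2.3.3, numpy 2.4.6, matplotlib 3.10.9 and scipy 1.17.1 under Python 3.11.15.

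The loci, gene lists and descriptions were chosen with earlier results of these data known. Named genes were Cdk6 and Dleu2 with all their intervals, genes within 250 kb, Mir15a and Mir16-1, listed cell-cycle genes with a summit, and up to 4 other genes with a split DMSO interval, taken by −log10 q. The comparison with intervals of like rank and with coverage over the list was added after seeing the data. Alternatives covered strength, overlap, list length, flank and ranking.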

Additional observations from a re-analysis of the deposited data

How the results depend on the processing

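Of 48 alternative values 37 stayed within 1.5 times the main count, or within the 95% exact Clopper-Pearson interval of a percentile, and 11 moved. These limits are tolerances only and do not measure how far a value would vary between libraries. At Cdk6, taking summits within 2 kb of the gene gave 0 DMSO and 1 VTP50469 intervals, by construction, and the same flank left 1 cell-cycle gene with a DMSO summit. At −log10 q of at least 5 there was 1 VTP50469 interval at Cdk6, and it was shared; at 10 or more there were 0. At 10 or more 2 DMSO intervals stayed at Dleu2. Reciprocal overlap of at least 50 percent left 0 of 1 DMSO and 0 of 2 VTP50469 intervals shared at Cdk6, because each VTP50469 interval is much the narrower. Summits within 200 bp left 1 of 2 VTP50469 intervals shared at Cdk6. The strongest VTP50469 interval at Cdk6 stood at the 33.0 percentile of its list by −log10 q and at 40.0 by fold, and the cause was not tested. At Dleu2 no count of shared intervals and no percentile moved beyond these limits, but the limits let a count pass between 2 and 3. Extending the intervals by 1 kb left 3 of 4 DMSO intervals shared there, in place of 2. Reciprocal overlap of at least 50 percent, or summits within 200 bp, left 2 of 3 VTP50469 intervals shared there. No paired analysis was possible because there was 1 library for each treatment, and leaving out a replicate was not possible for the same reason. The lists hold no read totals, so the weak intervals (the second at Cdk6 with VTP50469, the DMSO interval in Rb1 and that at 61642045 in Dleu2) are the least certain, and an interval missing from a list is not shown to be absent from the cells.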

Other observations

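VTP50469 intervals over 2 or more DMSO intervals, the reverse of the pattern at Cdk6 and Dleu2, are named here after their values were seen. One lay in Asph, a hydroxylase gene, with a fold of 5.11 over DMSO intervals of fold 4.42 and 5.47. Another lay 10399 bp from Mid1, a ubiquitin ligase gene, with a fold of 3.35 over DMSO intervals of fold 4.70 and 5.78. Both patterns occurred beside Mid1. A DMSO interval 3939 bp from it, of fold 3.47, was split over VTP50469 intervals of fold 4.84 and 3.23. The last VTP50469 interval of the reverse kind, at chr9:3018139-3038076, was 302791 bp from the nearest protein-coding gene, Alkbh8. At 19938 bp it was the widest of the VTP50469 list. Its −log10 q was 81.85 but its fold only 1.65, over DMSO intervals of fold 1.67 and 2.51. Whether its signal came from the fusion was not tested.

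Outside the rule for either locus, the VTP50469 list held an interval of fold 9.58 at chr14:61290958-61291202, 345418 bp from the Dleu2 tract, with a −log10 q of 13.4 and no DMSO counterpart. On the side of the Dleu2 start, 1222006 bp from the DMSO tract, an interval was shared by both lists, with folds of 11.8 (DMSO) and 9.09 (VTP50469), each in its own list.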
